A study of Rattus norvegicus with 4 samples.

Results

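Expression of 9 hepatic drug transporter genes was examined in the livers of 4 rats kept under, or only briefly exposed to, an inhalational anesthetic. The genes were chosen by symbol (*Abcb1a*, *Abcb1b*, *Abcc2*, *Abcc3*, *Abcg2*, *Slco1a1*, *Slco1a4*, *Slco1b2*, and *Slc47a1*) from the 16992 annotated genes measured. Their values were not a criterion, but earlier results of these data were known when they were chosen. Of the 9 genes, 8 had a row under their own symbol. *Slco1a4* had none, and its older symbol *Slco1a2* was used instead. In the RefSeq gene table (GRCr8), *Slco1a2* is a former name of both *Slco1a4* and *Slco1a5*, but the files list *Slco1a5* in a row of its own, and the *Slco1a2* row lies between *Slco1b2* and *Slco1a1*, which is the place of *Slco1a4* in the RefSeq gene order. Counts below are over the 8 genes found by symbol unless *Slco1a4* is said to be included.

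Total RNA was sequenced from the livers (left lateral lobe) of wild type male Wistar rats bought at 6 weeks of age, with 1 rat for each of 4 conditions. The rats inhaled 4.5% sevoflurane or 6% desflurane for 6 hours, or the same agent only until they lost consciousness, which served as the control for that agent. Both controls had therefore inhaled an anesthetic, and no liver was free of it. Per the study's methods, food and water were withheld before anesthesia. The rats kept under anesthesia for 6 hours were thus longer without food than the controls, and the part of this was not tested. With 1 library per condition, the sequencing has no replicates to check a difference, no p-value is given, and a difference between agents cannot be told apart from a difference between the rats.

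Uptake carriers of the organic anion transporting polypeptide (Oatp) family, encoded by *Slco* genes, bring bile acids, hormone conjugates, and many drugs from portal blood into hepatocytes. ATP-binding cassette pumps then export drugs and their conjugates, either across the canalicular membrane into bile (P-glycoprotein, Mrp2, and Bcrp) or across the sinusoidal membrane back to blood (Mrp3). Several of these genes are known targets of the xenobiotic receptors CAR and PXR, which also induce drug-metabolizing enzymes in the liver.

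RefSeq windows from 250 bases before to 50 bases after the gene start (GRCr8) were found for 7 of the 9 genes. The windows of *Abcb1a* (chr4:26397599-26397898, minus strand) and *Abcb1b* (chr4:26279980-26280279, minus strand) are shown because these neighboring genes encode the P-glycoproteins, and *Abcb1a* was called in unscaled TPM in each comparison with a control described below. Each is written 5′ to 3′ on the strand of the gene, and capitals mark runs of at least 12 bases present in both windows.
Abcb1a: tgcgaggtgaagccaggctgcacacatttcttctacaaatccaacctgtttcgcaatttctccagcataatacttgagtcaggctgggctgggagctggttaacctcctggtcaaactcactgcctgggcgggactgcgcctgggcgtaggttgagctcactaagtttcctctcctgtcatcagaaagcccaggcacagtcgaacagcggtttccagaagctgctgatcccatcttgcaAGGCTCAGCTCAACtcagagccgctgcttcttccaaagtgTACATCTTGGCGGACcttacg
Abcb1b: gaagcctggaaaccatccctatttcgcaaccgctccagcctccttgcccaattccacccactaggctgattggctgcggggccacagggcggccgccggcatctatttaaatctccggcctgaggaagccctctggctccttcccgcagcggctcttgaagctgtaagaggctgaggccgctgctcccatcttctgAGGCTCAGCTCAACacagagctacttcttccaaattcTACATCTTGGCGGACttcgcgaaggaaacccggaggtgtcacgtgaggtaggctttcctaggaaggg
The shared runs were 14 and 15 bases long. They began at base 240 and base 280 of the *Abcb1a* window and at base 197 and base 234 of the *Abcb1b* window, counted from its 5′ end. Among the 21 pairs of the 7 windows, this was the only pair with a shared run of that length. A GC box (GGGCGG, on either strand) occurred once in each of both windows, and 33.1% of the 33469 windows of this length contained it. The CCAAT box was found 2 times in the *Abcb1b* window and was not found in that of *Abcb1a*, compared with 37.5% of all windows.

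The window of *Abcc2* (chr1:252613625-252613924, plus strand) is shown because this gene was the most abundant efflux pump and had lower values after 6 hours of either agent. Capitals mark the nuclear receptor hexamers AGGTCA and AGTTCA on either strand.
Abcc2: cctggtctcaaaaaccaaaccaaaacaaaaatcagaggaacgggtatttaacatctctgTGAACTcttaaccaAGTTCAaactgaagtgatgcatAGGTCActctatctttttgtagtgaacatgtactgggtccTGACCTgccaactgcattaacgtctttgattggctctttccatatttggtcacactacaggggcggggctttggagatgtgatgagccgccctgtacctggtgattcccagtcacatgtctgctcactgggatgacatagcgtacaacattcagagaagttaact
It contained 2 matches of each hexamer, which were present in 16.2% (AGGTCA) and 14.5% (AGTTCA) of all windows. *Slco1b2* had 1 match of each, and the remaining 5 windows had none of either. TGACNNNGC, the core of the antioxidant response element, was found once in the *Abcc2* window, 18 bases after the start, in none of the other 6 windows, and in 12.1% of all windows. TATAAA was found in the *Slco1b2* window among the 7 and in 14.2% of all windows. These matches are descriptions of the letters and do not show binding.

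Expression is given as TPM, a value per transcript length that can be compared between genes. The transporters fell into an abundant and a scarce group. *Slco1b2*, the Oatp carrier restricted to hepatocytes, had the highest values, between 529 and 664 TPM, followed by *Abcc2* (317 to 473), which encodes the canalicular conjugate pump Mrp2. *Slco1a1* (173 to 244) and *Slco1a4* (117 to 254) overlapped in range, and their order differed between libraries. All 4 genes were far above *Abcb1a* (10.1 to 31.5), *Abcc3* (5.96 to 20.2), and *Abcg2* (10.1 to 19.0), whose ranges overlapped, and *Abcb1b* was lower (2.03 to 6.63). *Slc47a1*, which encodes the organic cation exporter Mate1, was listed at 0 in both sevoflurane libraries, and its values were 0.0101 TPM in the desflurane control and 0.0672 TPM after 6 hours of desflurane. No fold change is given for it. The average read depth over exons (coverage) was between 220 and 1167 for the 4 abundant genes and between 3.65 and 53.3 for *Abcb1a*, *Abcb1b*, *Abcc3*, and *Abcg2*. The values used here hold no read counts, so counting intervals could not be set.

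**Figure D1:**
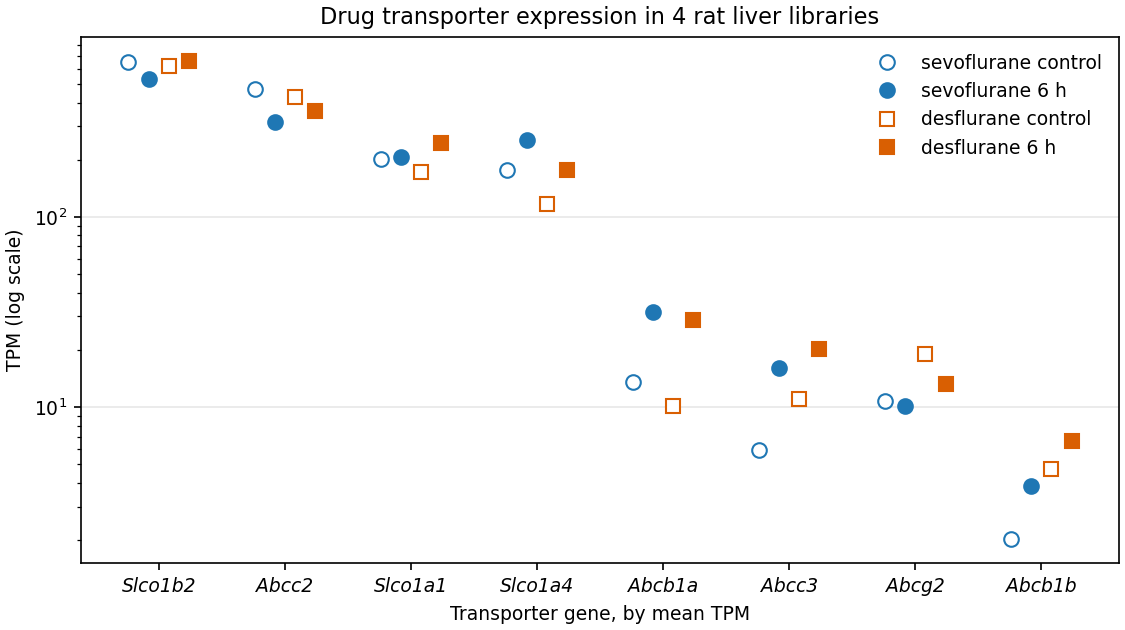
TPM (log scale) of 8 drug transporter genes in each of the 4 libraries, ordered by mean TPM, with open symbols for controls and filled symbols for 6 hours of anesthesia, and *Slco1a4* taken from the *Slco1a2* row. Both filled symbols lie above both open symbols for *Abcb1a*, *Abcc3*, *Slco1a1*, and *Slco1a4* (the last 2 not after median-of-ratios scaling) and below them for *Abcc2*; *Slc47a1*, with values of at most 0.0672 TPM, is not drawn.

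The depth derived from the ratio of FPKM to coverage was between 4.47 and 5.40 Gb of aligned sequence per library. Hepatocyte markers summed to between 129021 and 144349 TPM (8 of 8 genes measured), and kidney tubule markers to between 3.32 and 4.95 TPM (4 of 4 genes). The 6 pancreatic acinar markers summed to 47.4 TPM in the sevoflurane control and to between 15.2 and 18.5 TPM in the other libraries. Most of the sum in those other libraries was *Cela1* (15.1 to 18.4 TPM), which was at 22.8 TPM in the sevoflurane control. *Ctrb1*, *Prss1*, and *Pnlip* were listed at 0 outside the sevoflurane control, and each 6 hour library is given against both controls. The sums of 6 Kupffer cell markers in TPM were 326 (control) and 193 (6 hours) with sevoflurane and 274 (control) and 326 (6 hours) with desflurane. The sums of the 5 leukocyte markers measured were 23.4, 6.19, 15.6, and 16.6 TPM in the same order. Endothelial markers (6 genes), a further site of P-glycoprotein expression, summed to 192, 178, 185, and 212 TPM, and the 5 cholangiocyte markers measured, of a cell type that also expresses *Abcc3*, to 15.1, 16.9, 21.4, and 14.5 TPM. The stellate cell sums were between 253 and 284 TPM and the erythroid sums at most 52.0 TPM. The part of these differences in the results below was not tested. In whole liver, fewer cells of a type and less RNA per cell cannot be told apart.

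Genes were called upregulated or downregulated when TPM was higher than 2 in the higher library and differed more than 2-fold. These words describe the libraries, each from 1 rat. Of the 8 genes, 7 had a TPM value higher than 2 in at least 1 library. Sevoflurane upregulated 2 of them, *Abcb1a* and *Abcc3*, whereas 2.23% of all 9754 genes above the limit were upregulated in this comparison. Desflurane upregulated *Abcb1a* alone among the 8, with 2.79% of 9855 genes upregulated. Neither agent downregulated any of the 8 genes relative to its own control, compared with 3.30% of all genes with sevoflurane and 1.48% with desflurane. The 8 genes had median differences of log2(TPM + 1) of 0.02 (sevoflurane) and 0.25 (desflurane). For all genes above the limit, the medians were 0.05 and 0.11, and the desflurane differences of the members stand beside this shift.

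Exchanging the controls gave a different set. Relative to the desflurane control, sevoflurane upregulated *Abcb1a* among the 8 (2.52% of all genes) and also *Slco1a4*. Relative to the sevoflurane control, desflurane upregulated *Abcb1a*, *Abcb1b*, and *Abcc3* (2.84% of all genes). No member was downregulated in these comparisons, in which 2.59% and 1.58% of all genes were downregulated. The comparisons share libraries and are not independent of each other. In unscaled TPM, *Abcb1a* was the only member upregulated in all 4 comparisons, as were 49 (0.490%) of the 9993 genes with a TPM value higher than 2 in any library. After median-of-ratios scaling or in FPKM, *Abcb1a* was not called with desflurane against the sevoflurane control (1.97-fold and 1.77-fold). Both 6 hour libraries were above both controls for 3 of the 7 genes above the TPM limit (*Abcb1a*, *Abcc3*, and, without median-of-ratios scaling, *Slco1a1*), compared with 33.3% of all genes, and below both controls for *Abcc2*, compared with 13.3%. With 7 genes, these counts are near the shares of all genes. Between the 6 hour libraries no member was called (2.76% of all genes were higher with desflurane and 1.17% lower), and the widest difference was that of *Abcb1b*, 1.73-fold higher with desflurane.

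**Figure D2:**
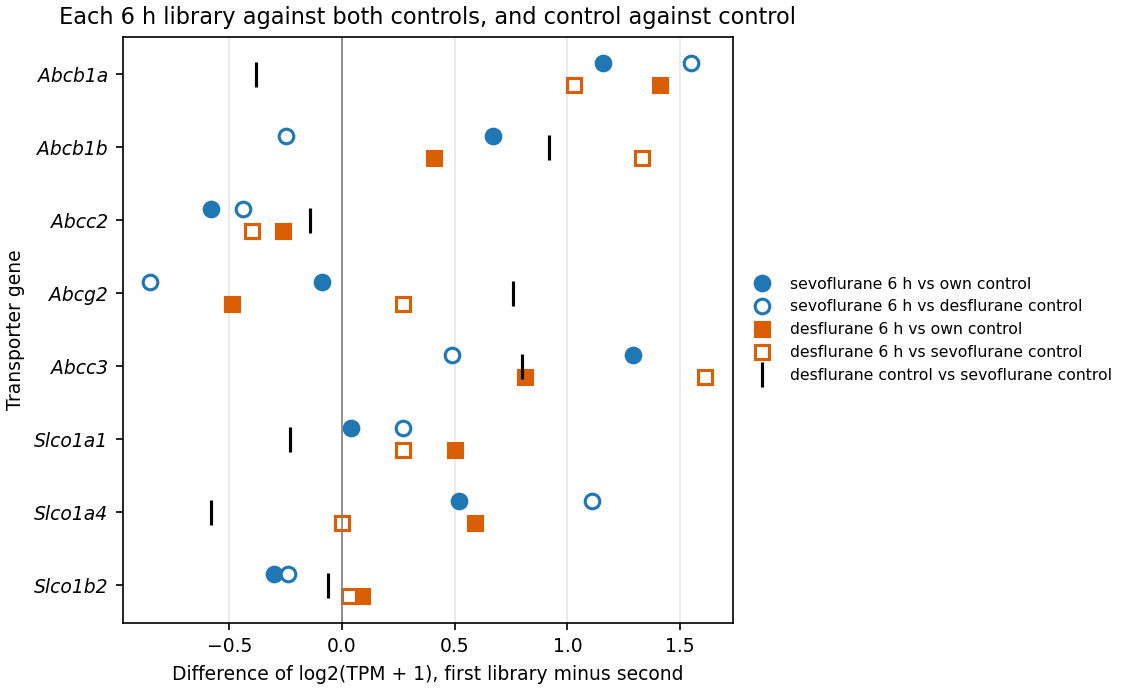
Difference of log2(TPM + 1) for 8 drug transporter genes, with circles for sevoflurane, squares for desflurane, filled symbols against the control of the same agent, open symbols against the control of the other agent, and black bars for the desflurane control minus the sevoflurane control. All 4 differences of *Abcb1a* lie between 1.03 and 1.55, whereas those of *Abcb1b*, *Abcg2*, and *Slco1b2* fall on both sides of 0.

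*Abcb1a* encodes the P-glycoprotein that extrudes lipophilic drugs into bile. It lies on chr4:22339829-22425381 (rn6, minus strand). Its TPM value was 13.5 (control) and 31.5 (6 hours) with sevoflurane and 10.1 (control) and 28.6 (6 hours) with desflurane. The controls were low and both 6 hour libraries were high, without overlap. The increase was 2.33-fold with sevoflurane and 2.83-fold with desflurane relative to the respective controls. Against the opposite control, it was 3.11-fold with sevoflurane and 2.12-fold with desflurane. The latter was 1.97-fold after median-of-ratios scaling and 1.77-fold in FPKM, and then no longer passed the limit. The 2 controls differed 1.34-fold, and the desflurane library was 0.908-fold the sevoflurane library, both below the limit. In each library, StringTie also assembled 1 transcript across this gene, with TPM values of 13.8, 31.5, 10.1, and 32.3 in the same order.

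*Abcb1b*, the neighboring P-glycoprotein gene (chr4:22225461-22307453, rn6, minus strand), was scarcer. Its TPM values were 2.03 (control) and 3.83 (6 hours) with sevoflurane and 4.74 (control) and 6.63 (6 hours) with desflurane. Each 6 hour value was above its own control, by 1.89-fold and 1.40-fold, but below the limit, and the sevoflurane value was below the desflurane control. The controls differed 2.34-fold, close to the 2.33-fold difference of *Abcb1a* with sevoflurane. StringTie assembled *Abcb1b* in 4 to 6 pieces per library. The piece nearest the 5′ end had TPM values of 1.88, 3.72, 3.31, and 8.64 in the same order. The piece nearest the 3′ end had values of 3.54, 4.66, 3.94, and 7.18, and there the controls were close together. In both pieces, the sevoflurane value was above the desflurane control. *Abcb1b* was the only member past the limits between the controls, where 1.17% of all genes were higher and 1.17% lower in the desflurane control. It was no longer past them with a TPM limit of 5 or with a pseudocount of 1 in the fold. It was also not called in FPKM, where the limit of 2 was applied to FPKM. There its higher control value fell below that limit, although the fold stayed above 2. Both genes are close paralogs and their reads could have been split between them by the counting. The summed TPM of both, examined after their values had been seen, was 15.6 (control) and 35.4 (6 hours) with sevoflurane and 14.9 (control) and 35.3 (6 hours) with desflurane. The sums were similar within the controls and within the 6 hour libraries. With either agent and either control, the increase of the sum was between 2.27-fold and 2.38-fold, and it was between 2.11-fold and 2.26-fold after median-of-ratios scaling. The sum was not computed in FPKM, so these narrow ranges are given for TPM and scaled TPM only. In FPKM, desflurane against the sevoflurane control was 1.77-fold for *Abcb1a*, below the limit, and 2.74-fold for *Abcb1b*. Sevoflurane against the desflurane control was 3.39-fold for *Abcb1a* and 0.881-fold for *Abcb1b* in FPKM. *Abcb1a* provided 87.0%, 89.2%, 68.1%, and 81.2% of the sum in the same order.

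**Figure D3:**
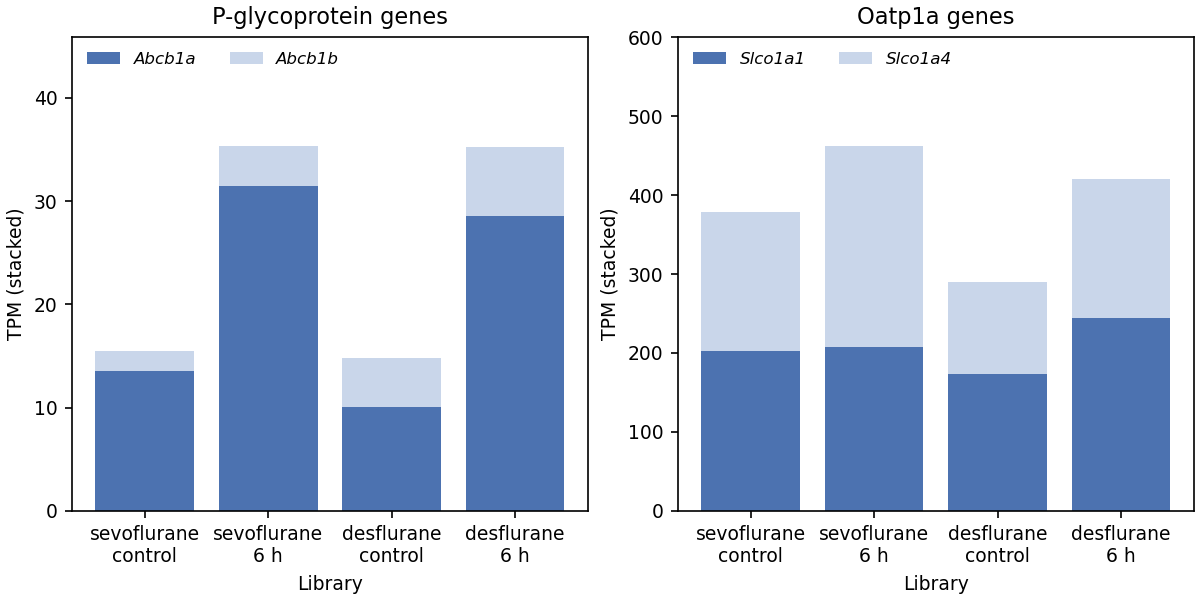
Stacked TPM values (axis from 0) of *Abcb1a* and *Abcb1b* (left) and of *Slco1a1* and *Slco1a4* (right, from the *Slco1a2* row) in each library. The P-glycoprotein sums are 15.6 and 14.9 TPM in the controls and 35.4 and 35.3 TPM after 6 hours, whereas the Oatp1a sums of the controls are 379 and 290 TPM.

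*Abcc2* (chr1:263554426-263612556, rn6, plus strand) encodes Mrp2, which secretes bilirubin glucuronides and glutathione conjugates into bile. Its TPM values were 473 (control) and 317 (6 hours) with sevoflurane and 429 (control) and 359 (6 hours) with desflurane. Both 6 hour libraries were below both controls. The values were lower by 1.49-fold with sevoflurane and 1.20-fold with desflurane relative to the respective controls, which did not reach the limit. Against the opposite control, they were lower by 1.35-fold and 1.32-fold. The direction was the same after median-of-ratios scaling and in FPKM.

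*Abcg2*, which encodes the canalicular sulfate and drug pump Bcrp (chr4:88834066-88890268, rn6, plus strand), had TPM values of 10.8 (control) and 10.1 (6 hours) with sevoflurane and 19.0 (control) and 13.2 (6 hours) with desflurane. The desflurane control was the highest library and stood apart from the others. Relative to the respective controls, the values were 0.934-fold with sevoflurane and 0.697-fold with desflurane. The desflurane value was 1.22-fold that of the sevoflurane control, so that its direction depended on the control. The controls differed 1.75-fold, more than either 6 hour library differed from its own control.

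*Abcc3* (chr10:82047308-82116669, rn6, minus strand) encodes Mrp3, a basolateral pump that returns glucuronides and bile acids to blood. Its TPM values were 5.96 (control) and 16.1 (6 hours) with sevoflurane and 11.1 (control) and 20.2 (6 hours) with desflurane. Both 6 hour libraries were above both controls. The increase was 2.70-fold with sevoflurane, whereas the desflurane value was 1.82-fold that of its control and below the limit. With the controls exchanged, the order of the agents was the opposite, 1.44-fold with sevoflurane and 3.39-fold with desflurane, and the controls themselves differed 1.87-fold. Whether the agents differ was not tested. *Abcc3* made up between 1.24% (sevoflurane control) and 5.33% (6 hours of desflurane) of the summed TPM of *Abcc2* and *Abcc3*, with 4.82% at 6 hours of sevoflurane and 2.53% in the desflurane control. StringTie assembled *Abcc3* in 3 or 4 pieces per library, and the piece nearest the 5′ end had TPM values of 9.17, 19.0, 13.2, and 22.4 in the same order. The piece nearest the 3′ end had values of 4.52, 15, 7.54, and 10.8, and there the desflurane library was below the sevoflurane library.

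Among the uptake carriers, *Slco1b2* (chr4:175814118-175881775, rn6, plus strand) had TPM values of 651 (control) and 529 (6 hours) with sevoflurane and 625 (control) and 664 (6 hours) with desflurane. The sevoflurane library was the lowest and the other libraries were close together. The value was 0.812-fold with sevoflurane and 1.06-fold with desflurane, and the log2 difference with desflurane, 0.09, was -0.04 after median-of-ratios scaling, and against the sevoflurane control the desflurane value was 1.02-fold, or 0.948-fold after that scaling and 0.855-fold in FPKM. *Slco1a1*, which encodes Oatp1a1 (chr4:176158174-176231344, rn6, minus strand), had TPM values of 202 (control) and 208 (6 hours) with sevoflurane and 173 (control) and 244 (6 hours) with desflurane. Its values were 1.03-fold and 1.41-fold those of the respective controls. With sevoflurane the log2 difference was 0.04, and it was -0.01 after median-of-ratios scaling and in FPKM. *Slco1a1* was then no longer above both controls.

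*Slco1a4* encodes Oatp1a4, a carrier of digoxin and other neutral drugs (*Slco1a2* row, chr4:175969549-176026163, rn6, minus strand). Its TPM values were 176 (control) and 254 (6 hours) with sevoflurane and 117 (control) and 177 (6 hours) with desflurane. The values were 1.44-fold those of the control with sevoflurane and 1.51-fold with desflurane, both below the limit. The desflurane library was at the level of the sevoflurane control (0.932-fold after median-of-ratios scaling and 0.840-fold in FPKM), whereas sevoflurane was 2.16-fold above the desflurane control and passed the limit. The desflurane control was 0.665-fold the sevoflurane control. StringTie assembled the gene in 2 pieces, whose TPM values were 174, 248, 117, and 185 for the 5′ piece and 173, 251, 116, and 170 for the 3′ piece. The *Slco1a4* share of the summed TPM of *Slco1a1* and *Slco1a4* was 46.6%, 54.9%, 40.5%, and 42.0% in the same order. Reads of these paralogs could also have been split. Summed over the 3 uptake carriers, the TPM values were 1030, 991, 915, and 1085, and summed over the 4 canalicular pump genes they were 500, 362, 463, and 407.

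Genes with the most similar pattern to each upregulated member were sought among 9136 genes above 2 TPM in every library, by the Euclidean distance between log2(TPM + 1) values after subtraction of the mean of each gene over the 4 libraries. For *Abcb1a*, the nearest genes were *Asl* (distance 0.102), an enzyme of the urea cycle, *LOC684871* (0.134), and *Zfp36* (0.276), an mRNA decay factor. *Asl* had TPM values of 113, 270, 93.4, and 231 in the sevoflurane control, sevoflurane, desflurane control, and desflurane libraries. For *Abcc3*, the nearest were *Polg2* (0.260), *Klhl25* (0.280), and *Pnpla7* (0.287). With 4 libraries, such likeness is a description only.

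Of 36 other hepatic and organic ion transporters on a list, 35 were measured and 21 had a TPM value higher than 2. Sevoflurane upregulated 1 and downregulated 1, and desflurane upregulated 1 and downregulated none. Of all genes above the limit, 2.23% were upregulated and 3.30% downregulated with sevoflurane, and 2.79% and 1.48% with desflurane. *Slc22a5*, the carnitine transporter, was upregulated 3.92-fold by desflurane. Its TPM values were 8.38 (control) and 10.1 (6 hours) with sevoflurane and 5.54 (control) and 21.7 (6 hours) with desflurane. The desflurane library stood apart from the others, and it was 2.59-fold above the sevoflurane control. *Slc29a2*, a nucleoside transporter, was just past the limit with sevoflurane (2.02-fold, from 2.49 to 5.03 TPM, but not after median-of-ratios scaling or in FPKM) and just below it with desflurane (1.90-fold, from 1.87 to 3.54 TPM). Against the opposite control, its values were 2.70-fold and 1.42-fold. *Slc22a4*, an ergothioneine transporter, decreased from 3.0 to 1.46 TPM with sevoflurane (2.06-fold) and was 2.60-fold below the desflurane control. It was not called against its own control in FPKM, where the limit of 2 was applied to FPKM values. These are lower than TPM values, so the lost call does not show a smaller fold. The 5 most abundant genes of the list, *Slc10a1*, *Abcb11*, *Slco2a1*, *Slc22a8*, and *Slc22a18*, were not called with either agent and either control. *Slc10a1*, the sodium-dependent bile acid carrier, had TPM values of 643, 505, 537, and 615, and *Abcb11*, the bile salt export pump, had values of 308, 295, 284, and 343 in the order of libraries used above. Over the 35 genes, the median log2 difference was -0.03 (sevoflurane) and 0.06 (desflurane).

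The list of 16 transcriptional regulators and adaptor proteins of these transporters was measured in full. *Nr1i2*, which encodes PXR, had TPM values of 67.7 (control) and 121 (6 hours) with sevoflurane and 54.2 (control) and 153 (6 hours) with desflurane. It was upregulated 2.82-fold by desflurane, and its 1.79-fold increase with sevoflurane was below the limit. Against the opposite control, both agents passed it, with 2.24-fold (sevoflurane) and 2.26-fold (desflurane). *Nr1i3*, which encodes CAR, had values of 52.9, 22.7, 37.3, and 42.1 TPM in the same order. It was downregulated 2.33-fold by sevoflurane and was 1.64-fold below the desflurane control, and had a 1.13-fold value with desflurane. Sevoflurane also downregulated *Nr0b2*, the bile acid-responsive repressor SHP, by 2.39-fold, but its level in the sevoflurane control (43.8 TPM) was above that in the desflurane control (16.6 TPM), which was near the sevoflurane library (18.4 TPM). *Ahr*, the dioxin receptor, was upregulated 2.20-fold by desflurane, from 33.6 to 73.9 TPM, and was 2.23-fold above the sevoflurane control. The 5 most abundant of this list were *Rxra*, *Hnf4a*, *Rdx*, *Nr1i2*, and *Nr1h4*, and those other than *Nr1i2* were not called.

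**Figure D4:**
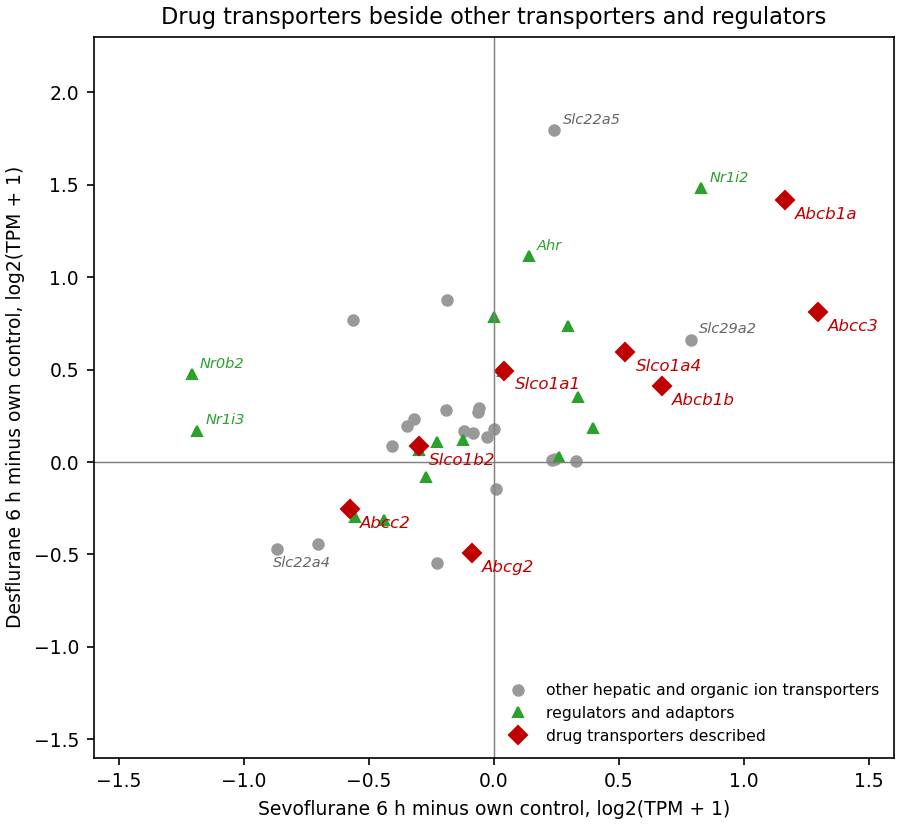
Difference of log2(TPM + 1) from the control of the same agent, for sevoflurane (horizontal axis) and desflurane (vertical axis), of 8 drug transporters (diamonds, *Slco1a4* from the *Slco1a2* row), other transporters (circles), and regulators and adaptors (triangles), the last 2 with TPM higher than 2 in any library. *Abcb1a* and *Abcc3* lie furthest to the right, *Slc22a5* is the highest on the vertical axis, and *Nr1i3* and *Nr0b2* lie furthest to the left.

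Known targets of CAR and PXR are given for comparison. Of the 19 measured among 21 listed symbols, sevoflurane upregulated 6 and desflurane 7, and none was downregulated, relative to the own control. With the controls exchanged, the order of the agents was the opposite, and sevoflurane upregulated 8 and downregulated 1, whereas desflurane upregulated 5 and downregulated none. Of all genes above the limit, 2.23% (sevoflurane) and 2.79% (desflurane) were upregulated against the own control. With the controls exchanged, these shares were 2.52% and 2.84%. Relative to the own control, both agents upregulated *Cyp2b1* (91.8-fold and 67.9-fold), *Cyp2b2*, *Por* (4.46-fold and 3.48-fold), *Alas1* (4.41-fold and 3.04-fold), *Ces2c* (3.29-fold and 2.78-fold), and *Cyp3a23/3a1* (4.07-fold and 2.15-fold). Against the opposite control, these calls remained except for *Cyp3a23/3a1* with desflurane (1.27-fold). *Cyp3a18* was called with desflurane against its own control (4.06-fold), but not against the sevoflurane control (1.21-fold), and it was called with sevoflurane against the desflurane control (4.23-fold) and not against its own (1.26-fold). Its controls differed 3.36-fold. Reads of *Cyp2b1* and *Cyp2b2*, and those of the *Cyp3a* genes, could have been split between paralogs. *Cyp2c7*, *Cyp3a2*, and *Cyp2c6v1*, the most abundant of the list, were not called against the own control, but *Cyp2c7* with sevoflurane was 2.01-fold below the desflurane control and then passed the limit. The increases of *Abcb1a* and *Abcc3* against the own control were smaller than those of *Cyp2b1*, *Por*, and *Alas1* with both agents. With desflurane, *Abcb1a* (2.83-fold) was above *Ces2c* (2.78-fold) and *Cyp3a23/3a1* (2.15-fold), whereas *Abcc3* (1.82-fold) was below them. With sevoflurane, *Abcb1a* and *Abcc3* were both below these targets. Against the sevoflurane control, the increase of *Abcc3* with desflurane (3.39-fold) was above those of *Por* (2.89-fold) and *Alas1* (3.10-fold). Against the desflurane control, that of *Abcc3* with sevoflurane (1.44-fold) was below those of *Por* (5.38-fold) and *Alas1* (4.32-fold). Of 9 targets of NRF2, a regulator of *Abcc2* and *Abcc3*, both agents downregulated *Gclm* (2.49-fold and 2.44-fold) and *Osgin1* (2.04-fold and 3.05-fold) relative to the own control. Against the opposite control, *Gclm* with sevoflurane was lower by 1.78-fold and not called, and the other 3 calls of these genes remained. Sevoflurane upregulated *Slc7a11*, whose TPM value was 0.366 in the control and 2.81 after 6 hours. *Gclc*, the remaining gene among the 3 most abundant, had 0.975-fold and 0.620-fold values. The medians of this list were 0.24 with sevoflurane and -0.25 with desflurane.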

How the data were processed

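Each condition was sequenced as 1 library, and groups were taken from the treatment labels. The authors trimmed paired reads with sickle, mapped them to rn6 with HISAT2, sorted them with SAMtools, and ran StringTie using refGene models of rn6. The deposited tables hold coverage (a signal, the read depth over exons, not scaled for library size), FPKM as normalized by the authors' StringTie run, and TPM. In the deposited TPM signal, the assembled rows add up to 1000000, and annotated rows, scaled alike, total between 779824 and 813454. The paper and the labels of the samples name different Illumina kits.

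Assembled rows were used only where named. Annotated rows longer than 200 bp were kept and TPM was summed by symbol. A gene was called with TPM higher than 2 in the higher library and a more than 2-fold difference without a pseudocount, the rule of the study's methods. Log2 differences used a pseudocount of 1 TPM. No test was made, as planned. Named genes were all 9 members. From the transporter and regulator lists, they were those called against their own control and the 5 most abundant by mean TPM, and from the target lists those called and the 3 most abundant. For each called member, the 3 nearest genes were named. Members and lists were chosen with earlier results of these data known. Alternatives covered the limits, scaling, FPKM, pseudocount, rows, and control. Sequence windows came from RefSeq (GRCr8), and *Abcc3* and *Slc47a1* were not matched. Simulated libraries were used to check the calling script. Python 3.11.15, numpy 2.4.6, pandas 2.3.3, and matplotlib 3.10.9 were used.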

Additional observations from a re-analysis of the deposited data

Results flagged for a closer look

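*Slco1b2* had a lower value than its own control with sevoflurane and a higher one with desflurane, with log2 differences of -0.30 and 0.09. Whether the agents differ was not tested. After median-of-ratios scaling, the desflurane difference was -0.04 and both were below 0.

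At the *Abcc3* locus, StringTie assembled transcripts on the opposite strand, which are outside the annotated rows used in the comparisons. Their summed TPM was 1.57 after 6 hours of sevoflurane, with none assembled in the sevoflurane control, and 3.80 after 6 hours of desflurane compared with 1.89 in the desflurane control. At the other 8 genes, such a transcript was assembled only for *Slco1b2* in the desflurane control (1.94 TPM). Per the study's methods, the library kit was stranded and HISAT2 was run with default parameters, in which no strand option is set.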

How the results depend on the processing

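The number of members upregulated by sevoflurane (2) was 0 with a fold limit of 3 and 1 with the mean of the 2 controls, in which *Abcc3* was 1.88-fold. The number upregulated by desflurane (1) was 2 with a fold limit of 1.5 or with the mean of the 2 controls, which added *Abcc3*, and 0 with a fold limit of 3. Without a TPM limit it was also 2, but the added gene was *Slc47a1*, at 0.0672 compared with 0.0101 TPM. Relative to the sevoflurane control, the number upregulated by desflurane (3) was 2 in FPKM, after median-of-ratios scaling, or with a fold limit of 3. It was 4 without a TPM limit, which added *Slc47a1* at 0.0672 compared with 0 TPM. Relative to the desflurane control, sevoflurane upregulated 2 instead of 1 when *Slco1a4* was included, an alternative chosen after seeing the data. In this comparison it downregulated 1 instead of 0 with a fold limit of 1.5 (*Abcg2*) or without a TPM limit (*Slc47a1*, 0 compared with 0.0101 TPM). The count of members higher in the desflurane control than in the sevoflurane control (1) was 0 with a TPM limit of 5, with a fold limit of 3, or with a pseudocount of 1 in the fold. It was also 0 in FPKM, where *Abcb1b* fell below the level limit of 2 and not below the fold limit. It was 3 with a fold limit of 1.5, and 2 without a TPM limit, which added *Slc47a1* at 0.0101 compared with 0 TPM. After median-of-ratios scaling, 2 members (*Abcc2* and *Slco1b2*) instead of 1 were below both controls, and 2 instead of 3 were above both. The median of the members with desflurane (0.25) was 0.41 with *Slco1a4* included or with TPM above 2 in all 4 libraries, and 0.49 with a pseudocount of 0.1. Against the sevoflurane control, it (0.27) was 0.03 in FPKM and 0.51 with a pseudocount of 0.1. Of the other transporters, sevoflurane upregulated 0 instead of 1 in FPKM or after scaling, and downregulated 0 in FPKM and 2 with the mean of the 2 controls instead of 1. In FPKM, the limit of 2 was applied to FPKM values, which are lower than TPM values, so a scarce gene can lose its call without a smaller fold. Regulators downregulated by sevoflurane were 0 instead of 2 with the mean of the 2 controls. The causes were not tested. Scaling moved the median log2 difference of all genes with desflurane from 0.11 to 0.00, and 197 genes were then upregulated and 196 downregulated, instead of 275 and 146. No paired analysis was possible because each condition has 1 library. Leaving out 1 control leaves both 6 hour libraries against the other, as given in the report. Depth limits *Slc47a1* most, with a coverage of at most 0.113, and then *Abcb1b*, with 3.65 in the sevoflurane control.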

Other observations

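Among the other transporters, *Slc22a8*, which encodes the organic anion transporter Oat3, differed most between the controls among the 5 most abundant genes of that list. Its TPM values were 206 (control) and 139 (6 hours) with sevoflurane and 79.0 (control) and 135 (6 hours) with desflurane. The sevoflurane control was 2.60-fold above the desflurane control, and both 6 hour libraries lay between them, so that the direction with either agent depended on the control. *Slc28a2*, a nucleoside carrier named after its values were seen, had TPM values of 39.1, 21.0, 53.0, and 38.0 in the same order. Both 6 hour values were below both controls, and the sevoflurane value was 2.52-fold below the desflurane control.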
